A study of Mus musculus with 16 samples.

Results

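The mouse immunity-related GTPase (IRG) genes Iigp1, Tgtp1, Tgtp2, Igtp, Irgm1 and Irgm2 were examined in transplanted mammary tumours given a Smoothened inhibitor, a checkpoint antibody, both or neither. They are 6 of the 55146 genes in the deposited table and were taken from it by symbol. Iigp1 was selected on its measured FPKM, chosen by its large rise in the combination group, and the other 5 members were chosen as its relatives with earlier results of these data known. The members' levels in combination and vehicle libraries are therefore given as a description from which no test is read, and so is Iigp1 wherever the combination libraries enter. All 6 members were among the 15105 genes with at least 1 FPKM (fragments per kilobase of transcript per M mapped fragments, M being mega) in at least 4 libraries.

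Each group held 4 tumours, sequenced as bulk RNA in 1 library each. The combination group received sonidegib, which blocks the Hedgehog transducer Smoothened, at 20 mg/kg every day together with a PD-L1 antibody, given 2 times a week at 5 mg/kg. The sonidegib group and the anti-PD-L1 group received 1 of these agents at the same dose, the vehicle group received neither, and all were treated for 28 days. All tumours had the MMTV-PyMT genotype, in which a mammary tumour virus promoter drives the polyoma middle T oncogene in mammary epithelium. They came from mice aged 12 weeks and were grown again in fat pad number 4 of FVB mice, so all groups share the oncogene and the host strain. The labels name no litter, donor, batch or day, and p-values reflect tumour-to-tumour spread within this set only. Library numbers ran through the groups in turn, so an effect of library order cannot be told apart from treatment. The labels give both a ribosomal RNA-depleted stranded protocol and polyadenylated RNA as the molecule, and this conflict was not resolved.

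IRG proteins are large GTPases that mouse cells make on exposure to interferon-gamma, and they are known for destroying the vacuoles in which parasites such as Toxoplasma grow. The effector members, Iigp1 (Irga6) and the Tgtp proteins (Irgb6), load onto such vacuoles, while the regulators Irgm1, Irgm2 and Igtp (Irgm3) sit on the cell's own membranes and keep the effectors inactive there. Interferon-gamma binds its receptor and activates JAK kinases, and the signal acts on genes through GAS elements and, by factors of the IRF family, through ISRE elements.

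The promoters of 5 members are shown because these genes varied together across the libraries and are known interferon targets; the promoter of Iigp1 is not analysed here. The 140 bases before the RefSeq start site are given 5′ to 3′ on the strand of the gene (RefSeq, GRCm38.p6), at chr11:48992247-48992386 (minus) for Tgtp1, chr11:49064213-49064352 (minus) for Tgtp2, chr11:58199416-58199555 (plus) for Igtp, chr11:58214837-58214976 (plus) for Irgm2 and chr11:48871421-48871560 (minus) for Irgm1. Capitals mark every match to 2 motifs, searched on both strands from 250 bases before to 50 bases after the start site: GAAANNGAAA, a core of the ISRE, and TTCNNNGAA, a core of the GAS element.
Tgtp1: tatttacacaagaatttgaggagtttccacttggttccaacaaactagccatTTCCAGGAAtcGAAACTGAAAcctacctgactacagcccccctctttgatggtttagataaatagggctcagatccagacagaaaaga
Tgtp2: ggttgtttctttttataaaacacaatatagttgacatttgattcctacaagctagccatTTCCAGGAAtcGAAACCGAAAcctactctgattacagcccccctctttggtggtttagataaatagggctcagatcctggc
Igtp: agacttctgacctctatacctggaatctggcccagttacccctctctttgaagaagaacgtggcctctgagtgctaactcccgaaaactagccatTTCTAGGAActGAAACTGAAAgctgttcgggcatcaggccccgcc
Irgm2: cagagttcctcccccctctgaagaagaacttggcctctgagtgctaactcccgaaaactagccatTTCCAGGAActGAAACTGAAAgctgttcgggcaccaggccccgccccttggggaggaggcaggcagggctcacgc
Irgm1: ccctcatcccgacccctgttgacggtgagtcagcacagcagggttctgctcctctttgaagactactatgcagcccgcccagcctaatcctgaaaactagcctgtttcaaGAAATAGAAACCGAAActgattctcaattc
All 5 promoters held GAAANNGAAA, which is in 3.44% of the 32851 RefSeq promoters of the same length, and 4 of 5 held TTCNNNGAA, which is in 8.30%. Irgm1 held overlapping copies of GAAANNGAAA at positions -30 and -24 from the start site, and no TTCNNNGAA. In Tgtp1, Tgtp2, Igtp and Irgm2 the TTCNNNGAA match began 11 bases before the GAAANNGAAA match, without overlap. Of all 32851 promoters 5 had this arrangement, and the remaining one belonged to Gm12185 (Irgb2b1), another IRG gene. The spacing was read off the members' own sequences and relatives share sequence, so this is a description of letters and not of measured binding.

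Facts of the libraries bear on these values. Vehicle replicate 3 stood apart, with 11361 genes at 1 FPKM or more, against 13107 to 14784 in the other libraries, and a median log2 deviation from the gene medians of -0.76, against -0.13 to 0.15. Read depth is unknown, since no source states it and the values did not resolve into whole fragments. The trend of a library's values with gene GC content was -0.36 to 0.24 log2 units per 10% GC in combination libraries, -0.18 to 0.30 in sonidegib, -0.17 to 0.05 in anti-PD-L1 and -0.03 to 0.48 in vehicle. Combination replicate 1, at 0.24, was the highest of its group on this measure, and vehicle replicate 4, at -0.03, was the lowest of its group. None of the 8 epithelial markers, among them Epcam, Krt8 and Cdh1, was listed at 0 in any library. The same held for the listed markers of T and NK cells, macrophages, fibroblasts and endothelium, so this does not test the tissue label.

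**Figure D1:**
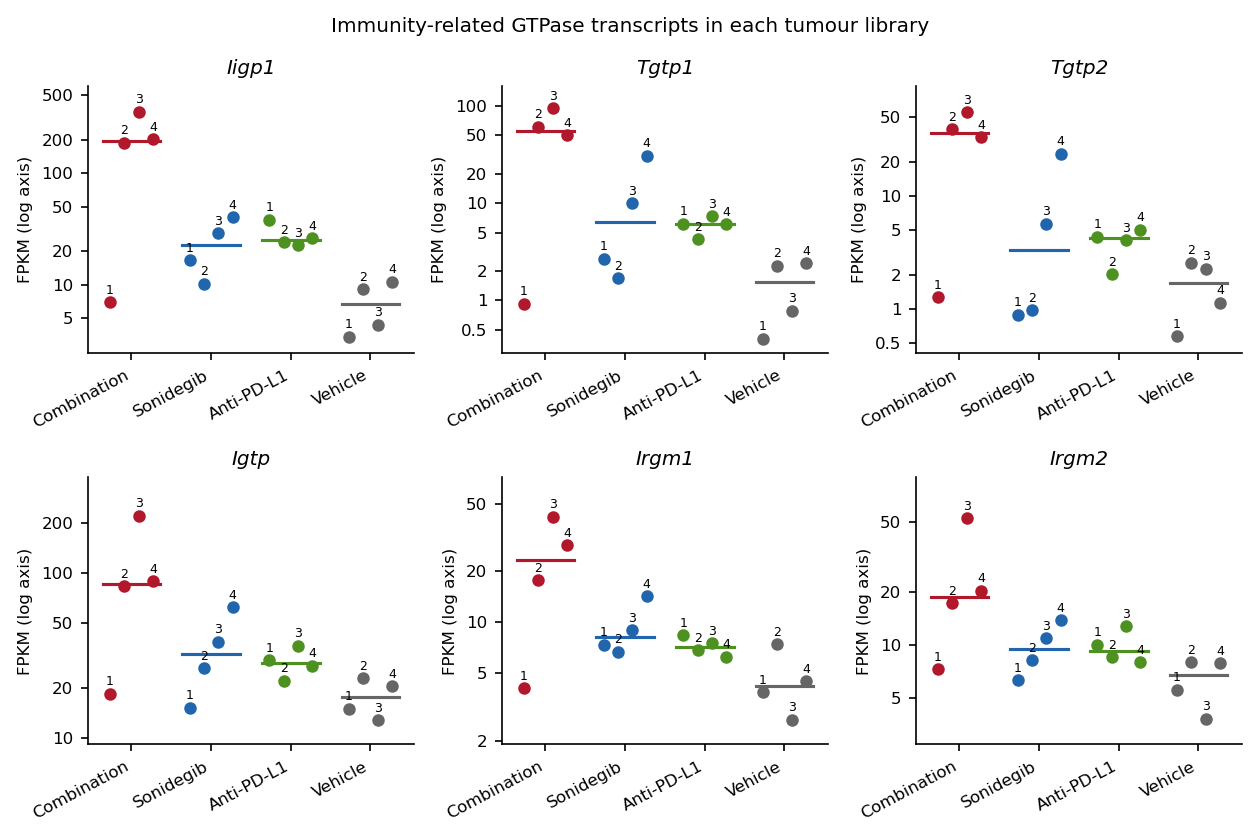
Level of each member in every library (FPKM, log axis), with the replicate number at each point and a line at the group median; combination replicates 2, 3 and 4 are the 3 highest libraries in all 6 panels, sonidegib replicate 4 comes next, and combination replicate 1 lies inside the vehicle range.

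In tumours given both drugs all 6 members had a higher mean than in vehicle tumours, and the effectors differed most. Iigp1, the effector best known for assembling on parasite vacuoles, was at 6.94, 188, 356 and 203 FPKM in combination replicates 1 to 4, against 3.41, 9.09, 4.37 and 10.6 FPKM in vehicle replicates 1 to 4. The groups overlapped, because combination replicate 1 lay among the vehicle libraries while the other 3 exceeded every other library in the study. The means were 188 ± 143 FPKM in the combination and 6.87 ± 3.52 FPKM in vehicle (SD, n = 4 each), a ratio of 27.4 and a difference of 3.82 on the log2(FPKM + 1) scale. That scale is used for all log2 differences here, and it understates changes of genes near 1 FPKM. The gene, ENSMUSG00000054072.12, occupies chromosome 18 from 60376027 to 60392634, plus strand (GRCm38, GENCODE M21).

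Tgtp1, an effector that targets vacuole membranes, was at 0.928, 61.5, 95.1 and 50.0 FPKM in combination replicates 1 to 4, against 0.403, 2.28, 0.782 and 2.41 FPKM in vehicle replicates 1 to 4. Its near-identical neighbour Tgtp2 was at 1.28, 38.9, 55.4 and 33.3 FPKM in the combination, against 0.575, 2.58, 2.28 and 1.14 FPKM in vehicle. For both genes combination replicate 1 again fell inside the vehicle range and the other 3 combination libraries were above every other library. The ratio of means was 35.3 for Tgtp1 and 19.6 for Tgtp2, with log2 differences of 3.59 and 3.03. Of the 75-base stretches in the longest Tgtp1 transcript 84.8% occur without mismatch in Tgtp2, and 85.2% the other way, so how fragments were divided between these genes is uncertain. Their sum was 2.21, 100.4, 150.4 and 83.4 FPKM in the combination, against 0.978, 4.87, 3.06 and 3.55 FPKM in vehicle. Tgtp2 (ENSMUSG00000078921.3) lies on chromosome 11 at 49057194 to 49064206, minus strand. The identifier of Tgtp1 (ENSMUSG00000115886.1) is not in GENCODE M21, and by symbol RefSeq places it at 48985329 to 48992246 of the same chromosome.

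The 3 regulators were higher by smaller ratios. Igtp, which resides at the endoplasmic reticulum and lipid droplets, was at 18.6, 83.5, 222 and 88.9 FPKM in combination replicates 1 to 4, against 15.1, 23.1, 12.8 and 20.6 FPKM in vehicle. Irgm1, a regulator at Golgi and lysosomal membranes that also bears on autophagy, was at 4.07, 17.8, 42.2 and 28.6 FPKM in the combination, against 3.87, 7.42, 2.66 and 4.49 FPKM in vehicle. Irgm2, found mainly at the Golgi, was at 7.24, 17.1, 52.3 and 20.3 FPKM in the combination, against 5.55, 7.92, 3.79 and 7.85 FPKM in vehicle. In each case 3 of 4 combination libraries exceeded all vehicle libraries and replicate 1 did not. The ratio of means was 5.77 for Igtp, 5.03 for Irgm1 and 3.86 for Irgm2, with log2 differences of 2.04, 1.80 and 1.52. Igtp (ENSMUSG00000078853.8, chromosome 11 at 58199556 to 58207591, plus strand) overlaps the annotated span of Irgm2 (ENSMUSG00000069874.7, 58199618 to 58222782) on the same strand. Of their 75-base stretches 8.37% of those of Igtp occur in Irgm2 and 4.02% the other way, so the split of their fragments is uncertain too. Irgm1 (ENSMUSG00000116444.1, also not in M21) is placed by RefSeq at 48865245 to 48871420 of chromosome 11.

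Limma with Benjamini-Hochberg adjustment over all genes put 1703 of 15105 genes past an adjusted p of 0.05 between combination and vehicle, or 11.3%, and 4 of the 6 members (Iigp1, Irgm1, Irgm2 and Igtp) were among them. This contrast chose Iigp1, so nothing is read from that count. The median log2 difference of the members was 2.53, beside 0.26 over all genes tested. The median over all genes was above 0 against vehicle in each drug group, at 0.26 in the combination, 0.33 in sonidegib and 0.30 in anti-PD-L1. With libraries scaled by median ratios that median of the combination was 0.01 and the members' median 2.22. With the GC trend of each library removed the members' median was 2.09, and 1 member was past the threshold.

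As a sum the family stood at 39.1, 406, 823 and 424 FPKM in combination replicates 1 to 4, at 49.0, 54.2, 103 and 185 FPKM in sonidegib, at 96.8, 68.0, 90.6 and 78.8 FPKM in anti-PD-L1 and at 28.9, 52.4, 26.7 and 47.1 FPKM in vehicle. Its make-up differed between libraries as well as its size. Iigp1, Tgtp1 and Tgtp2 held 23.4%, 70.9%, 61.5% and 67.5% of it in combination replicates 1 to 4, 23.7% to 51.4% in sonidegib, 37.6% to 50.3% in anti-PD-L1 and 15.2% to 30.0% in vehicle. Iigp1 was the most abundant member in combination replicates 2 to 4, while Igtp was the most abundant in all 4 vehicle libraries, with 43.8% to 52.2% of the sum. The ratio of Iigp1 to Igtp was 0.373, 2.25, 1.60 and 2.28 in the combination, against 0.226 to 0.515 in vehicle. In bulk tumours a change in the number of expressing cells and one in RNA per cell cannot be told apart.

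**Figure D2:**
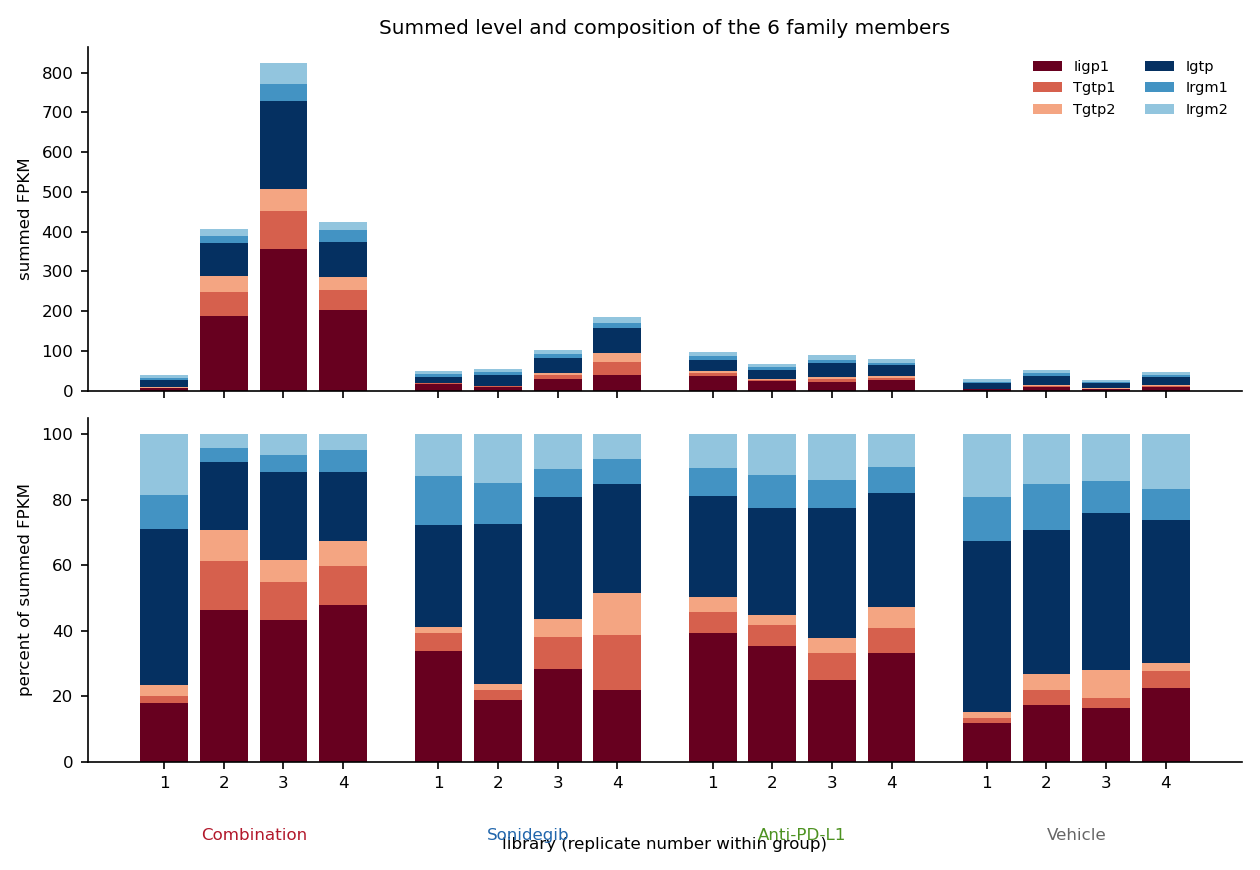
Summed FPKM of the 6 members in each library and the percent of that sum in each member; combination replicates 2, 3 and 4 reach 406 to 823 FPKM with most of it in the effectors, while combination replicate 1 has 39.1 FPKM.

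Anti-PD-L1 alone was set against vehicle to ask what the antibody did to the family by itself. This comparison, like that of sonidegib with vehicle below, shares the vehicle libraries of the contrast by which Iigp1 was chosen. The counts and p-values of the members in both are therefore not independent of that choice and are given as a description. Iigp1 was at 38.2, 24.1, 22.6 and 26.0 FPKM in anti-PD-L1 replicates 1 to 4, against 3.41, 9.09, 4.37 and 10.6 FPKM in vehicle, so the groups did not overlap. The means were 27.7 ± 7.11 FPKM in anti-PD-L1 and 6.87 ± 3.52 FPKM in vehicle (SD, n = 4 each), a log2 difference of 1.95 with a 95% interval from -0.04 to 3.95. Tgtp1 was at 6.19, 4.29, 7.36 and 6.07 FPKM in anti-PD-L1 and Irgm2 at 9.97, 8.49, 12.8 and 7.96 FPKM, and both lay above every vehicle library. For Irgm2 the margin was narrow, as its highest vehicle value was 7.92 FPKM. Thus 3 of 6 members were higher without overlap in anti-PD-L1, where 3.39% of all genes tested were. The count used FPKM as deposited, with no median-ratio scaling, which divides each library by a factor. That factor was 0.90 for vehicle replicate 2, at 7.92 FPKM of Irgm2, and 1.05 for anti-PD-L1 replicate 4, at 7.96 FPKM. Division puts the vehicle value above the other, so Irgm2 overlaps under that scaling. For each of the 3 the exact two-sided permutation test gave p = 0.0286, the smallest that 4 against 4 libraries allow, before any adjustment.

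The other 3 members overlapped with vehicle. Tgtp2 was at 4.36, 2.05, 4.10 and 5.05 FPKM in anti-PD-L1, Igtp at 29.7, 22.3, 36.2 and 27.4 FPKM and Irgm1 at 8.42, 6.82, 7.56 and 6.27 FPKM. Of their anti-PD-L1 libraries 2 or 3 were above all vehicle libraries. By limma none of the 6 members passed after adjustment over all genes (adjusted p = 0.208 for Iigp1 and 0.354 to 0.575 for the other 5). Limma called 0 of 15105 genes here (0%), with 3712 at an unadjusted p under 0.05 and 0 of 6 members among these. The members' median log2 difference was 0.80, beside 0.30 over all genes, 0.34 beside 0.00 with the GC trend removed, and 0.44 beside 0.00 with median-ratio scaling. Vehicle replicate 4 was the lowest of its group in GC trend. It had 10.6, 2.41, 1.14, 20.6, 4.49 and 7.85 FPKM of Iigp1, Tgtp1, Tgtp2, Igtp, Irgm1 and Irgm2. The lowest anti-PD-L1 values of these genes were 22.6, 4.29, 2.05, 22.3, 6.27 and 7.96 FPKM. The part of base composition in these differences was not tested.

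For each of the 6 members the anti-PD-L1 libraries were the most even of the 4 groups. The highest exceeded the lowest by a factor of 1.69 for Iigp1, 1.71 for Tgtp1 and 1.34 to 2.47 for the other members. In the combination the factor was 51.3 for Iigp1, 102 for Tgtp1 and 7.22 to 43.3 for the others, and in vehicle it was 1.80 to 5.97 over the 6 members.

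Sonidegib alone gave an uneven picture. Iigp1 was at 16.5, 10.2, 29.0 and 40.4 FPKM in sonidegib replicates 1 to 4, and 3 of these values were above the highest vehicle value of 10.6 FPKM. Tgtp1 was at 2.69, 1.68, 10.1 and 30.9 FPKM and Tgtp2 at 0.897, 0.981, 5.70 and 23.7 FPKM in sonidegib. In these effectors the lowest 1 or 2 sonidegib libraries were inside the vehicle range. Igtp was at 15.3, 26.5, 38.3 and 61.7 FPKM in sonidegib, Irgm1 at 7.39, 6.71, 8.95 and 14.3 FPKM and Irgm2 at 6.26, 8.15, 10.8 and 13.8 FPKM. For all 6 members replicate 4 was the highest sonidegib library and ranked next after combination replicates 2, 3 and 4.

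No member separated sonidegib from vehicle in every library, where 6% of all genes tested were higher in that way. The log2 difference was 1.61 (95% interval -0.38 to 3.61) for Iigp1, 1.74 for Tgtp1 and 0.56 to 0.99 for the other 4. By limma the adjusted p was 0.258 for Iigp1 and 0.215 to 0.505 for the others. Limma called 0 of 15105 genes (0%), with 4131 at an unadjusted p under 0.05 and 0 of 6 members among these. The members' median was 0.94, beside 0.33 over all genes. It was 0.44 beside -0.01 with the GC trend removed, and 0.60 beside 0.01 with median-ratio scaling.

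The single drugs were then compared with each other. Iigp1 averaged 24.0 ± 13.4 FPKM in sonidegib and 27.7 ± 7.11 FPKM in anti-PD-L1 (SD, n = 4 each), a log2 difference of -0.34 with a 95% interval from -2.33 to 1.65. The differences of the other 5 members were -0.04 to 0.28, with a narrowest 95% interval of -0.88 to 0.81 for Irgm2 and a widest of -2.18 to 2.50 for Tgtp1. By limma the adjusted p was 1.00 for each member. Limma called 0 of 15105 genes (0%), with 316 at an unadjusted p under 0.05 and 0 of 6 members among these.

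**Figure D3:**
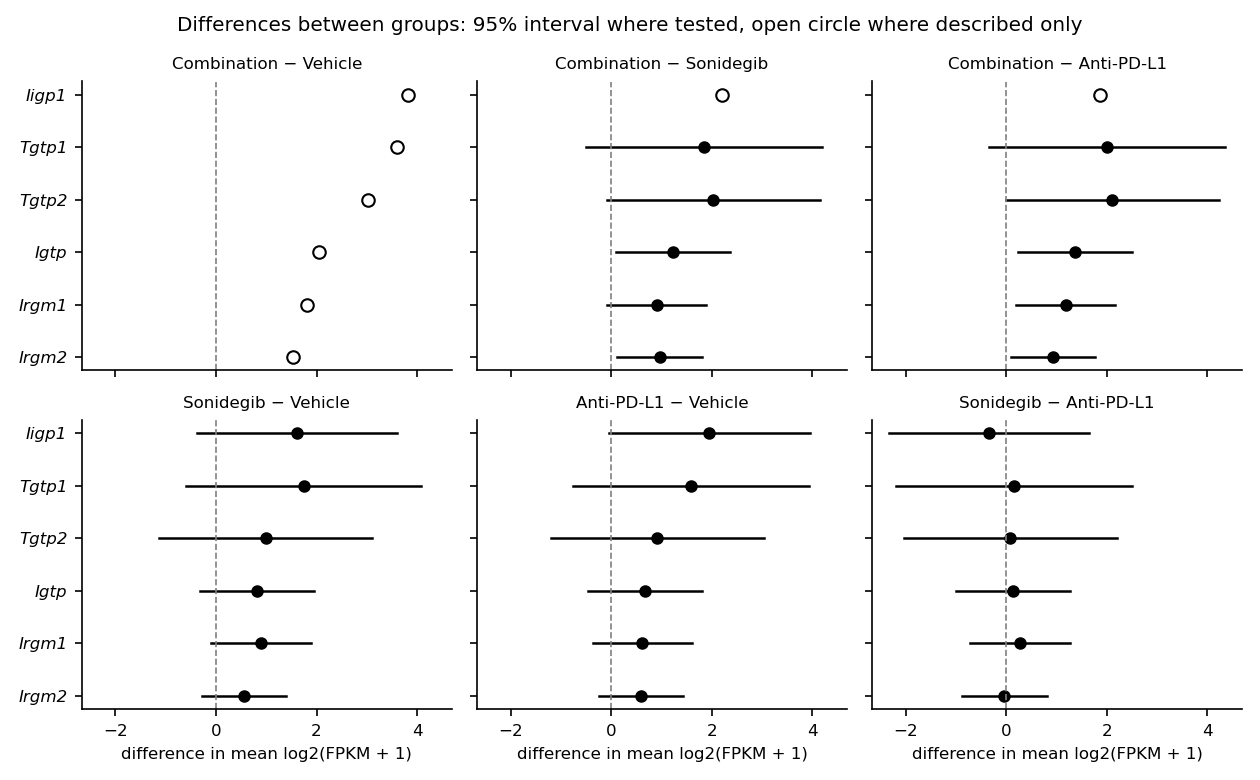
Differences in mean log2(FPKM + 1) of each member in 6 comparisons, first-named group minus the second; lines are 95% intervals from limma where a difference was tested, and open circles are differences described only. The points of the combination against vehicle lie between 1.52 and 3.82, and those of sonidegib against anti-PD-L1 between -0.34 and 0.28.

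The combination was set against each single drug to ask what the second agent added. These comparisons share the combination libraries by which Iigp1 was chosen. Iigp1 averaged 188 ± 143 FPKM in the combination, against 24.0 ± 13.4 FPKM in sonidegib and 27.7 ± 7.11 FPKM in anti-PD-L1 (SD, n = 4 each), with log2 differences of 2.20 and 1.86 and no test. Igtp averaged 103 ± 85.5 FPKM in the combination, against 35.5 ± 19.9 FPKM in sonidegib and 28.9 ± 5.79 FPKM in anti-PD-L1, with log2 differences of 1.23 (SE 0.54) and 1.36 (SE 0.54). The other 4 members differed by 0.91 to 2.04 from sonidegib and by 0.93 to 2.11 from anti-PD-L1. For each member 3 combination libraries lay above all libraries of either single drug, and combination replicate 1 lay below all 4 anti-PD-L1 libraries.

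Against sonidegib 0 of the 5 tested members passed by limma (adjusted p = 0.959 for each), with Irgm2 and Igtp at an unadjusted p under 0.05. Of all genes 0 passed there (0%), with 647 at an unadjusted p under 0.05. Against anti-PD-L1 0 of the 5 passed (limma, adjusted p = 0.812 to 0.837), with Irgm1, Irgm2 and Igtp at an unadjusted p under 0.05. Of all genes 1 passed there (0.00662%), with 873 at an unadjusted p under 0.05. These counts depend on combination replicate 1. Without it Irgm1 (log2 difference 1.53, adjusted p = 0.0247), Igtp (1.88, adjusted p = 0.0333) and Tgtp1 (3.13, adjusted p = 0.0498) were higher than in sonidegib by limma. Irgm2 (adjusted p = 0.0709) and Tgtp2 (adjusted p = 0.0795) did not pass, and 115 of all genes did (0.761%). Against anti-PD-L1 Irgm1 (1.81, adjusted p = 0.00585), Igtp (2.02, adjusted p = 0.0153) and Tgtp1 (3.29, adjusted p = 0.0274) passed without that library, among 214 of all genes (1.42%). The labels give no reason to leave it out. That library was singled out after the members' low values in it were seen. The adjusted p-values without it are therefore a description, from which no test is read.

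Whether both drugs together differed from the sum of their single effects was asked by the interaction term. It was 0.25 for Iigp1, given without a test, and 0.27 to 1.12 for the other 5 members, with standard errors of 0.57 to 1.53. By limma 0 of these 5 passed (adjusted p = 0.705 to 0.942; 0 of 5 at an unadjusted p under 0.05), and 1 gene of 15105 did (0.00662%). Without combination replicate 1 the members' median interaction was 1.34, against 0.33 with it, and again 0 members passed. The members' median was 0.84 with the GC trend removed and 0.76 with median-ratio scaling, where the median over all genes was 0.01 and 0.03, against -0.35 without either.

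Of 12 further IRG genes 5 reached the level for testing. Between combination and vehicle 4 of these 5 rose by limma, beside 11.3% of all genes called in either direction. They are relatives of Iigp1 in the contrast by which it was chosen, so their p-values are not independent of that choice. Ifi47 (Irgd), a relative of the effectors, was at 4.77, 25.3, 37.3 and 30.1 FPKM in combination replicates 1 to 4, against 2.42, 4.29, 2.13 and 5.46 FPKM in vehicle (log2 difference 2.24, SE 0.48, adjusted p = 0.0342). Gm12250 (Irgb10), an effector known to attack the membranes of bacteria, was at 2.79, 16.7, 57.3 and 25.6 FPKM in the combination, against 2.13, 2.02, 0.907 and 3.27 FPKM in vehicle (2.60, SE 0.62, adjusted p = 0.0357). GENCODE M21 lists its identifier as a processed pseudogene, while RefSeq lists the gene as protein coding. Gm4951 (Ifgga2) differed by 2.61 (adjusted p = 0.0357) and F830016B08Rik (Ifgga4) by 2.07 (adjusted p = 0.0409). Combination replicate 1 was inside the vehicle range for these 4, as it was for the 6 members. Irgq, a distant relative, did not pass, at 7.54 ± 3.42 FPKM in the combination and 11.6 ± 3.84 FPKM in vehicle (SD, n = 4 each; -0.60, SE 0.31, adjusted p = 0.182). Without vehicle replicate 3 the count was 0 of 5, and 3 genes in all passed.

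In anti-PD-L1 the same 4 relatives were each higher in every library than in every vehicle library (exact two-sided permutation p = 0.0286 each, unadjusted, the smallest possible), beside 3.39% of all genes. Ifi47 was at 8.72, 6.39, 8.52 and 7.65 FPKM in anti-PD-L1, above its highest vehicle value of 5.46 FPKM. The vehicle libraries are those of the contrast that chose Iigp1, so these p-values are not independent of that choice. By limma 0 of the 5 passed (adjusted p = 0.204 for Ifi47), with 0 of 5 at an unadjusted p under 0.05, beside 3712 of all 15105 genes. Against vehicle in sonidegib 0 of 5 passed as well, with 1 at an unadjusted p under 0.05, Ifi47, beside 4131 of all 15105 genes.

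The members followed each other closely from library to library. Over the 16 libraries Pearson's r of log2(FPKM + 1) between 2 members was 0.863 (Irgm2 and Tgtp2) to 0.977 (Irgm2 and Igtp, which overlap in the annotation). After group means were subtracted it was 0.748 to 0.962, and over the 12 libraries without the combination 0.679 to 0.938. The points share library depth and base composition, and no p is attached.

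Among 11608 named genes other than the 6 members with a mean of at least 1 FPKM, 8 were picked as most like the members' mean standardised profile over the 16 libraries. They were Ifi47 (r = 0.985), the guanylate-binding protein genes Gbp8 (0.967), Gbp10 (0.965), Gbp5 (0.960) and Gbp4 (0.955), the cytotoxic granule gene Nkg7 (0.960), the chemokine gene Cxcl9 (0.953) and the serpin gene Serpina3g (0.951). After group means were subtracted r was 0.912 to 0.976. Gbp8 was at 0.152, 25.0, 51.3 and 11.9 FPKM in combination replicates 1 to 4, against 0.101, 1.80, 0.531 and 0.391 FPKM in vehicle. In all 8 genes combination replicate 1 was the lowest of its group, as for the members.

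**Figure D4:**
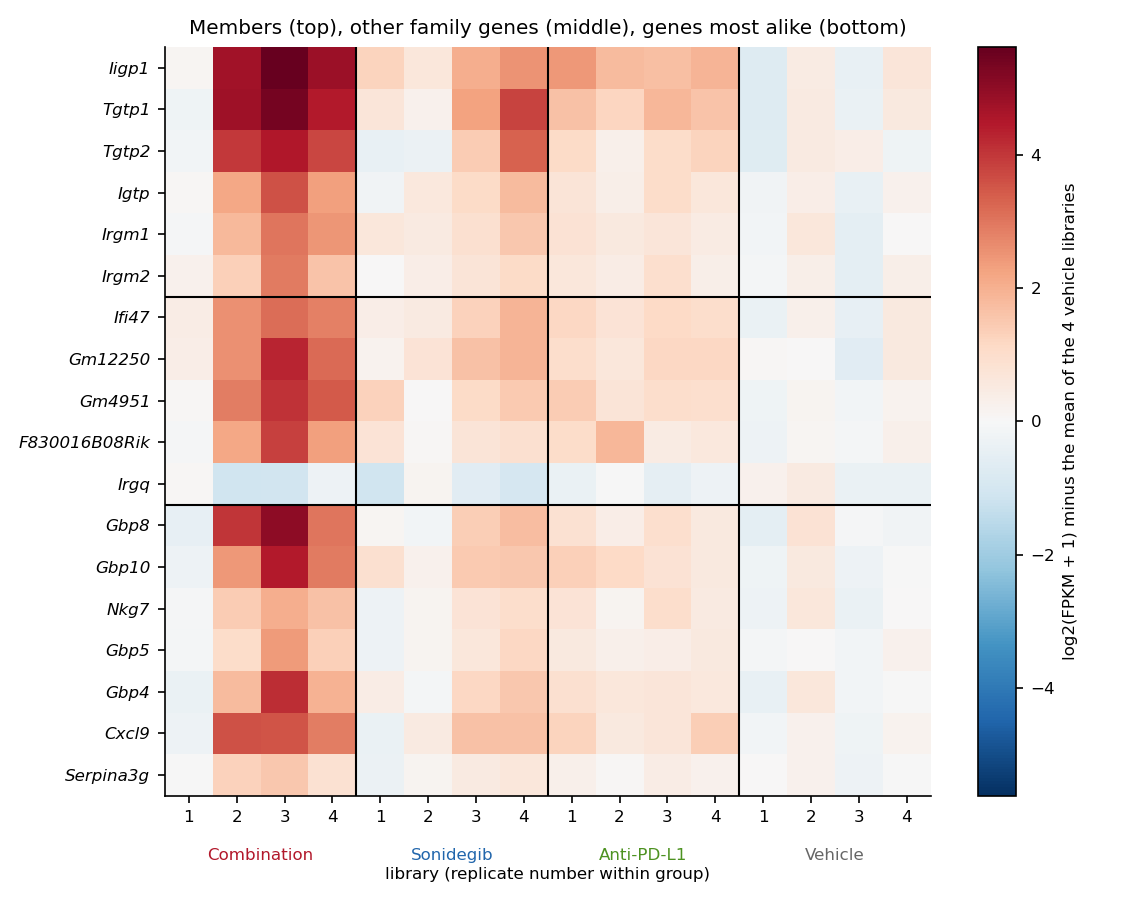
Log2(FPKM + 1) minus the mean of the 4 vehicle libraries (colour) for the 6 members, 5 other family genes and the most alike genes not yet listed, in the 16 libraries; combination replicates 2 to 4 are the highest columns for the members, combination replicate 1 is near vehicle, and Irgq does not follow.

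Genes of the interferon pathways were examined from lists. Ifng, the gene of the inducing cytokine, singled out after its values were seen, was at 0.102, 0.246, 0.525 and 0.239 FPKM in combination replicates 1 to 4, 0.0176, 0.0515, 0.108 and 0.192 FPKM in sonidegib and 0.0409, 0.265, 0.0793 and 0 FPKM in anti-PD-L1, and was listed at 0 in all 4 vehicle libraries, below the level at which genes were tested. Anti-PD-L1 replicate 2 was above 3 of the 4 combination libraries. Of 12 tested genes for interferon-gamma signalling 2 rose between combination and vehicle and 0 fell, beside 11.3% of all genes called, with a median log2 difference of 0.62 beside 0.26 over all genes. A count of this size is near that of all genes and is not read as a result about the pathway. 1 listed gene is not analysed here. Among those that rose was Ptpn2, a phosphatase that dampens JAK signalling, at 14.5, 30.9, 28.1 and 27.0 FPKM in combination replicates 1 to 4, against 9.02, 9.07, 4.65 and 22.9 FPKM in vehicle (limma, log2 difference 1.22, SE 0.37, adjusted p = 0.0433). The count was 6 of 12 without combination replicate 1, where 4229 of all 15105 genes passed. It was 0 of 12 without vehicle replicate 3, where 3 of all genes passed.

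For the type I interferon receptor and its transcription complex, limma called 0 of 8 tested genes between combination and vehicle, with a median of 0.27. At an unadjusted p under 0.05 were 2 of the 8, beside 5081 of all 15105 genes. A list of inducers and cofactors of interferon-gamma also held Cxcl9 and Cxcl10, chemokine genes that interferon-gamma itself induces. Of its 4 tested genes 1 rose, the T cell attracting chemokine gene Cxcl9 (limma, 2.43, SE 0.71, adjusted p = 0.0445). Cxcl9 was at 0.536, 21.2, 20.3 and 12.6 FPKM in the combination, against 0.543 to 1.19 FPKM in vehicle. Il18 reached the level for testing only through the combination libraries, and without it the count was 1 of 3. All genes gave 11.3%, and without vehicle replicate 3 the count was 0 of 4, beside 3 of all 15105 genes. In sonidegib and in anti-PD-L1 limma called 0 genes of these 3 lists against vehicle. At an unadjusted p under 0.05 were 2 of the 12 signalling genes in each and 0 in the other lists. Of all 15105 genes 4131 in sonidegib and 3712 in anti-PD-L1 were at an unadjusted p under 0.05.

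Guanylate-binding proteins cooperate with the IRG effectors at vacuoles, and 4 of 7 tested genes rose between combination and vehicle, beside 11.3% of all genes called (median 1.39, beside 0.26). Gbp2b reached the level for testing only through the combination libraries, and without it the count was 3 of 6. The others were Gbp7 (limma, 1.39, SE 0.34, adjusted p = 0.0345), Gbp2 (1.83, SE 0.49, adjusted p = 0.0359) and Gbp9 (2.03, SE 0.56, adjusted p = 0.0377). Gbp7 was at 3.38, 8.97, 18.9 and 14.1 FPKM in combination replicates 1 to 4, against 2.91, 3.75, 1.91 and 4.20 FPKM in vehicle. The count was 7 of the 7 without combination replicate 1, where 4229 of all 15105 genes passed. It was 0 of 7 without vehicle replicate 3, where 3 of all genes passed. ATG conjugation proteins are needed to direct IRG proteins to vacuoles, and 2 of 9 tested genes rose (median 0.44; 1 listed gene is not analysed here), which is near the 11.3% and the median of 0.26 of all genes. They were Atg3 (limma, 1.22, SE 0.32, adjusted p = 0.0357) and Atg5 (1.05, SE 0.30, adjusted p = 0.0388), and without vehicle replicate 3 the count was 0 of 9.

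Markers of other cell types moved with the members in part, and their part in the family's levels was not tested. The 12 markers of T and NK cells summed to 4.49, 25.8, 27.1 and 29.9 FPKM in combination replicates 1 to 4, to 3.60 to 11.6 FPKM in sonidegib, to 6.47 to 12.8 FPKM in anti-PD-L1 and to 2.53 to 6.65 FPKM in vehicle. Combination replicate 1 was low here, as it was for the IRG members, and no marker of the list was at exactly 0, though Klrb1c was near 0 in vehicle replicates 1 and 2. Of 5 tested markers 4 rose between combination and vehicle, beside 11.3% of all genes called, among them Cd3g (limma, 1.74, SE 0.33, adjusted p = 0.0278) and Trbc2 (1.97, SE 0.51, adjusted p = 0.0362). Trac, another of the 4, reached the level for testing only through the combination libraries, and without it the count was 3 of 4. Without vehicle replicate 3 the count was 0 of 5, beside 3 of all 15105 genes.

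Other lists also differed between combination replicate 1 and the rest of its group. Epithelial markers summed to 2073, 1106, 1006 and 1096 FPKM in combination replicates 1 to 4 and 614 to 2453 FPKM in vehicle. Replicate 1 was the highest of its group for this sum, where it was the lowest for the IRG members. Singly that held for Krt8, Krt18, Krt19, Cldn3 and Cldn7, but not for Epcam, Cdh1 or Elf5. Fibroblast markers summed to 177, 497, 339.6 and 428 FPKM in the combination and 129 to 181 FPKM in vehicle, and 4 of 8 were higher by limma. Replicate 1 was the lowest of its group for this sum, but not for Col3a1 or Pdgfrb singly. Postn alone was at 13.4, 239, 83.1 and 196 FPKM in combination replicates 1 to 4. Macrophage and monocyte markers summed to 379, 583, 403 and 492 FPKM in the combination and 227 to 387 FPKM in vehicle, with 3 of 12 higher. Mertk reached the level for testing only through the combination libraries, and without it the count was 3 of 11. Without combination replicate 1 the count over all 12 was 5, where 4229 of all 15105 genes passed. Endothelial markers summed to 11.7 to 16.2 FPKM in the combination and 6.86 to 13.5 FPKM in vehicle. With all libraries these counts stand beside 11.3% of all genes called. Without vehicle replicate 3 they were 0 of 8 for fibroblasts and 0 of 12 for macrophages and monocytes, beside 3 of all 15105 genes. Limma called 0 of 8 epithelial markers (0 at an unadjusted p under 0.05) and 0 of 5 endothelial markers (2 at an unadjusted p under 0.05). Of all 15105 genes 5081 were at an unadjusted p under 0.05 in this comparison of combination and vehicle.

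Combination replicate 1 also stood apart in adipocyte markers, which summed to 140.3, 8.46, 15.6 and 12.0 FPKM in combination replicates 1 to 4 and to 2.10 to 19.2 FPKM in vehicle, with 1 of 3 tested higher and 0 of 3 without vehicle replicate 3. Mitochondrially encoded transcripts summed to 12620.4, 41949, 14152 and 38524 FPKM in the combination and to 3552 to 18642 FPKM in vehicle, with 8 of 13 higher beside 11.3% of all genes. The count was 12 of 13 without combination replicate 1, where 4229 of all 15105 genes passed. It was 0 of 13 without vehicle replicate 3, where 3 of all genes passed. The order of these sums within the combination was not that of the members, since replicate 3 was the highest for every IRG member and not for these. Limma called 0 of 8 tested immediate early genes, with a median of -0.68. At an unadjusted p under 0.05 were 4 of the 8, beside 5081 of all 15105 genes.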

How the data were processed

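The deposited values are FPKM per gene, 1 column for each of 16 libraries, and the authors normalised them by transcript length and mapped fragments. The submitters' processing notes name TopHat, Cufflinks, GRCm38.p6 and mm10, while their versions and the gene annotation are not stated in the sources. Columns were matched to libraries by the S number in the labels. Whole fragments could not be recovered: 24.7% to 30.0% of low values lay within 0.1 of a whole multiple, where an even spread gives 20%. The filter kept genes reaching 1 FPKM in 4 or more libraries, which were tested as log2(FPKM + 1) with limma 3.58.1 in R 4.3.3 (1 model over the 4 groups, trended and robust moderation, Benjamini-Hochberg threshold 0.05), and summaries used pandas 2.3.3 and NumPy 2.4.6. The fit was run on simulated data with independent noise and no shared library effects, so that run does not test it on libraries with trends like these. Single genes were also compared by exact two-sided permutation of mean FPKM over 70 regroupings. GC content and length came from GENCODE M21 and promoters from RefSeq. 1 result for a listed gene is not reported here. The members and lists were chosen with earlier results of these data known. Named were the 6 members, the genes with the lowest p of each list, and the 8 most alike genes. Alternatives were other scaling, filters, pseudocounts, GC and length trends, the replicate block and leaving out each library. Leaving out combination replicate 1 or vehicle replicate 3, for the member tests and the list counts, was chosen after seeing the data.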

Additional observations from a re-analysis of the deposited data

How the results depend on the processing

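Between combination and vehicle 4 members were past the threshold, and removing the GC trend left 1, removing GC and length trends left 0, and the count was 0 with no filter on low values, 0 with only the compared groups fitted, and 0 to 6 when 1 library was left out. It was 0 without vehicle replicate 1, 2 or 3 or combination replicate 2, 3 or 4, and 6 without combination replicate 1. Against sonidegib and against anti-PD-L1 the count was 0, and 0 to 4 when 1 library was left out, the 4 being without combination replicate 1. These counts take in the values that chose Iigp1 and are a description, from which no test of Iigp1 is read. It was 0 in the other comparisons under all of these settings. All genes past the threshold between combination and vehicle were 1703, but 555 with the GC trend removed, 2772 with median-ratio scaling, 4229 without combination replicate 1, 3 without vehicle replicate 3 and 4947 without vehicle replicate 4. Without vehicle replicate 4, sonidegib against vehicle gave 3974 and anti-PD-L1 against vehicle 3927, where all libraries gave 0, and 0 members passed in either. Higher against lower calls between combination and vehicle were 1559 and 144, but 1539 and 1233 with median-ratio scaling and 336 and 219 with the GC trend removed. Some small differences changed sign. Leaving out 1 library, sonidegib minus anti-PD-L1 was -0.21 to 0.14 for Irgm2, -0.18 to 0.47 for Igtp, -0.52 to 0.67 for Tgtp1 and -0.69 to 0.54 for Tgtp2, and the interaction was -0.11 to 0.92 for Irgm1, -0.0922 to 0.81 for Irgm2 and -0.33 to 1.55 for Tgtp1. With a pseudocount of 0.1, sonidegib minus anti-PD-L1 was -0.12 for Tgtp2 and the interaction -0.33 for Tgtp1. With the replicate block 6 members were past the threshold between combination and vehicle and 0 in the other comparisons. After group means were subtracted, same-numbered libraries had correlations of -0.43 to 0.34 and differently numbered ones -0.46 to 0.48. The numbers thus showed no pairing of the tumours, but the labels name no donor or day by which to settle it. The causes were not tested.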
